A study of Bos taurus with 6 samples.

Results

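The genes described here are 32 components of the PI3K, AKT and mTOR signalling pathway, taken by symbol from a table of 28200 gene rows. All 32 symbols had a row, each had 1 row only, and 31 passed the filter on low counts, which left 13390 genes for testing. By role, 20 members carry or pass on the signal (activators), 11 restrain it or its output (inhibitors), and ULK1, a kinase that the pathway switches off, stands in neither group. The cells were primary epithelial cells grown from the mammary tissue of Holstein cattle, either wild type or with the gene for the transcription factor KLF6 disrupted by CRISPR/Cas9, with 3 libraries per genotype. The labels name no other agent, time point or age, call the gene completely knocked out, and leave unsaid if each library is its own animal, culture or edited clone. Each p-value is thus about the spread among 3 libraries per genotype, and part or all of it may be technical. These are bulk RNA samples, so fewer cells of a type and less RNA per cell cannot be told apart.

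PI3K is a lipid kinase that growth factor and insulin receptors switch on. Its product recruits the kinase AKT to the plasma membrane, where PDPK1 and mTOR complex 2 phosphorylate it. AKT in turn blocks the TSC complex, the brake on the small GTPase RHEB. Amino acids act through a separate branch, in which Rag GTPases bring mTOR complex 1 to the lysosome, where RHEB activates it. Active mTOR complex 1 phosphorylates S6 kinases and the 4E-BP proteins, which favours translation, and holds back autophagy through ULK1. In the mammary gland the pathway is known as a link between amino acid and insulin supply and milk protein and lipid synthesis.

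Total counts lay between 17512892 and 18724879 per library, and the first principal component, which separated the genotypes, held 92.5% of the variance. KLF6 itself was at 502.5, 495.9 and 557.8 CPM (counts per 1000000 reads of the scaled library) in wild type and at 224.3, 230.1 and 217.2 CPM in the knockout (log2 fold change, knockout over wild type, -1.21 ± 0.05, SE). Its RNA was therefore lower but present in every knockout library, and gene counts cannot show whether the remaining RNA carries the edit. Wild-type replicate 3 stood apart: its differences from the other wild-type libraries had a variance 9.14 and 9.12 times that of counting alone, and all other pairs within a genotype gave 2.27 to 2.79 times. Epithelial markers were abundant in both genotypes, with EPCAM at 165 CPM in wild type and 167 CPM in the knockout, while the summed level of 5 luminal markers was 10570 to 11880 CPM in wild type and 3641 to 3790 CPM in the knockout (4 fell), and that of 5 basal markers was 5167 to 5239 and 2780 to 2849 CPM (2 rose, 3 fell). The leukocyte gene PTPRC, the endothelial gene KDR, the pericyte gene RGS5 and the adipocyte gene ADIPOQ had 0 reads in all 6 libraries. The summed levels in wild-type and knockout libraries were 26.9 to 29.7 and 18.0 to 20.01 CPM for 5 fibroblast markers (1 rose and 2 fell of 4 tested). The riser, COL1A2, had 0 reads in wild type and 278 in the knockout. PDGFRA fell from 21.85 to 7.706 CPM and COL1A1 from 4.244 to 3.085 CPM. For 4 endothelial markers the sums were 3.64 to 4.70 and 30.7 to 32.5 CPM. There PECAM1 rose from 0.22 to 31.3 CPM, VWF fell from 3.57 to 0.24 CPM and CDH5 had 18 reads in wild type and 1 in the knockout. For 4 pericyte markers the sums were 96.2 to 117.6 and 50.7 to 51.1 CPM (1 rose and 2 fell of 3 tested). MCAM rose from 2.33 to 10.86 CPM, while NOTCH3 fell from 54.87 to 14.52 CPM and CSPG4 from 46.92 to 25.49 CPM. For 4 leukocyte markers the sums were 7.40 to 9.20 and 4.71 to 5.22 CPM (1 rose and 1 fell of 3 tested). CSF1R rose from 0.29 to 1.62 CPM and CD74 fell from 4.15 to 0.13 CPM. For 4 adipocyte markers the sums were 1.75 to 2.35 and 1.89 to 4.24 CPM. Among these, LEP had 0 reads in wild type and 46 in the knockout. All these counts of markers that rose or fell use the test described below. By it 37.1% of all tested genes rose and 37.6% fell, and no marker list was tested against those shares. The part of the marker differences in the results below was not tested.

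In the KLF6 knockout libraries DDIT4 and SESN3, both inhibitors of mTOR complex 1, fell more than any other member, by 29.0-fold and 25.6-fold. TSC2 and SESN2, also inhibitors, fell 2.86-fold and 2.60-fold, and AKT1 and RHEB, both activators, rose 1.97-fold and 1.74-fold. No other member fell by more than 2.07-fold. A gene was called when the edgeR quasi-likelihood test gave a Benjamini-Hochberg adjusted p under 0.05. By this test, 7 of the 31 tested members rose (the background over all tested genes was 37.1%) and 16 fell (background 37.6%). The number of called members, 23 of 31, was thus close to the share of all genes called. At least 2-fold falls were found for 7 members (background 11.5%), namely DDIT4, SESN3, TSC2, SESN2, ULK1, PIK3R2 and RICTOR, and at least 2-fold rises for 0 members (background 10.8%). DDIT4, SESN3, TSC2 and SESN2 stayed beyond 2-fold in all 16 alternative settings, in which the count of such falls was 5 to 8. RICTOR, PIK3R2 and ULK1 lay at the threshold: without wild-type replicate 3 RICTOR (-0.98) and PIK3R2 (-0.99) were under it, as was ULK1 (-0.99) without knockout replicate 3. Without wild-type replicate 3, 7 members rose and 18 fell. For 25 of the 31 members the libraries of the genotypes did not overlap, against a background of 76.2%.

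Activators and inhibitors are described apart. Of 20 tested activators, 5 rose and 9 fell, with log2 fold changes between -1.02 and 0.98 and a median of -0.16. PIK3R1 and PIK3R2, which both stabilise and restrain PI3K, and FLCN were counted as activators by their place in the signalling complexes. Without PIK3R1, PIK3R2 and FLCN the activator median was -0.12. Of the 10 tested inhibitors, 2 rose and 6 fell, with log2 fold changes between -4.86 and 0.67 and a median of -0.85. The shares called, 70.0% of activators and 80.0% of inhibitors, were near the 74.6% of all tested genes (37.1% rose and 37.6% fell). The median over all tested genes was -0.01. The difference between the role groups was not tested, since members are not replicates. With the median of each gene's chromosome taken out, the inhibitor median was -0.57 and the activator median -0.15.

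**Figure D1:**
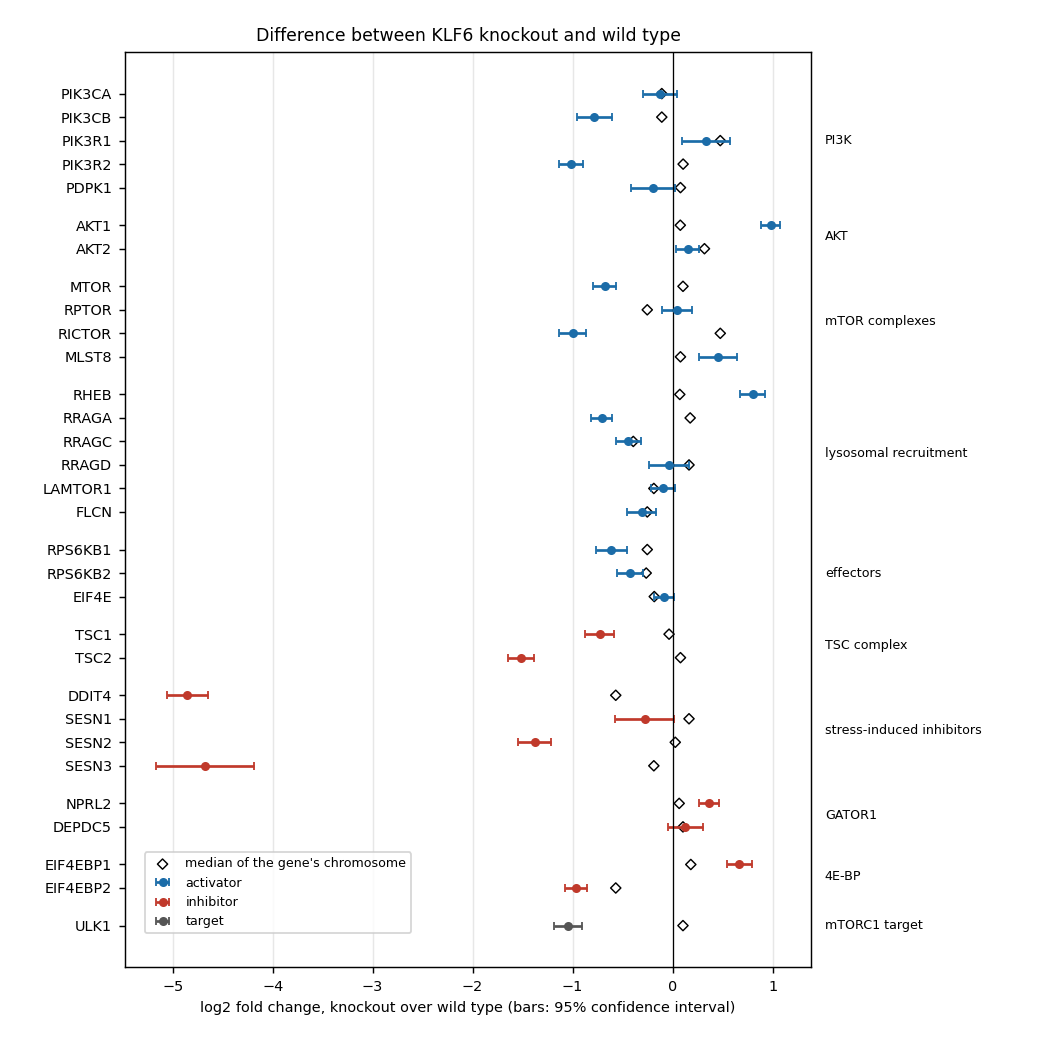
Log2 fold change, knockout relative to wild type, for the 31 tested members (horizontal axis), ordered by role, with 95% confidence intervals as bars (activators blue, inhibitors red, ULK1 grey). Open diamonds give the median log2 fold change of all tested genes on the same chromosome. DDIT4 (-4.86) and SESN3 (-4.68) lie apart from every other member, and the activators lie between -1.02 and 0.98.

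The inhibitors that cells make under stress showed the largest differences. DDIT4, also called REDD1, releases the TSC complex to block mTOR complex 1 when oxygen or energy is short or glucocorticoids are present. It stood at 77.9, 72.3 and 78.3 CPM in the wild-type libraries and at 2.47, 3.04 and 2.34 CPM in the knockout libraries. Every knockout library was therefore far below every wild-type library, with 141 reads over the knockout libraries against 4162 over the wild type. The fall was 29.0-fold (log2 fold change -4.86 ± 0.10, SE; edgeR adjusted p = 1.03e-17) and ranked 87th from the lowest among the 13390 log2 fold changes. DDIT4 lies on chromosome 28 (28323892 to 28325899, plus strand; no source used here names the genome build). Genes of that chromosome were lower together in the knockout, with a median of -0.57, and the fall of DDIT4 relative to it was -4.29.

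The sestrins can bind the GATOR2 complex and hold it back, and they also reduce oxidative stress. SESN3 stood at 13.3, 11.2 and 10.3 CPM in wild type and at 0.69, 0.27 and 0.39 CPM in the knockout. It passed the filter through its wild-type libraries, since 24 reads in all were left in the knockout libraries against 633 in wild type. Its fall was 25.6-fold (log2 fold change -4.68 ± 0.23, SE; edgeR adjusted p = 3.12e-12), the 97th from the lowest. SESN3 lies on chromosome 15 (15192650 to 15264115), whose median was -0.19.

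SESN2, a leucine-binding sestrin, was lower to a smaller extent. It was at 37.6, 34.8 and 33.9 CPM in wild type and at 13.8, 13.97 and 13.0 CPM in the knockout, a 2.60-fold fall (log2 fold change -1.38 ± 0.08, SE; edgeR adjusted p = 2.87e-11). The groups did not overlap. SESN1 was at 6.38, 7.45 and 7.81 CPM in wild type and 5.22, 6.20 and 6.41 CPM in the knockout, with overlapping groups. It did not pass the test (-0.28, 95% interval -0.57 to 0.02; edgeR adjusted p = 0.0798), but did so when wild-type replicate 1 was left out (-0.36, edgeR adjusted p = 0.0431), when libraries were scaled by total count (-0.33, adjusted p = 0.0430) and relative to its chromosome (-0.44, adjusted p = 0.00872). The 3 sestrins thus ranged from a difference that missed the test to a 25.6-fold fall.

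The TSC complex, the GTPase activator that switches RHEB off, had less RNA of TSC1 and TSC2, but not of its smaller subunit TBC1D7, which did not pass the test (38.7 ± 4.22 CPM in wild type, 38.6 ± 0.47 CPM in the knockout; log2 fold change -0.0048, 95% interval -0.16 to 0.15). TSC2, which holds the catalytic domain, was at 75.8, 81.0 and 73.0 CPM in wild type and at 27.3, 26.3 and 26.8 CPM in the knockout, a 2.86-fold fall (log2 fold change -1.52 ± 0.06, SE; edgeR adjusted p = 2.22e-13). TSC1, which stabilises TSC2, was at 43.9, 44.3 and 49.0 CPM in wild type and between 27.5 and 27.7 CPM in the knockout, a 1.66-fold fall (-0.73 ± 0.07). Neither TSC1 nor TSC2 had overlapping groups. TSC2 shares 12 bases with NTHL1, a gene of the opposite strand that was at 21.6 CPM in wild type and 17.6 CPM in the knockout.

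Of the remaining upstream inhibitors 1 rose, 1 did not pass the test and 1 was too low to be tested. GATOR1 is the complex that switches the Rag GTPases off when amino acids are scarce. Its subunit NPRL2 rose from 103 ± 2.06 to 132.5 ± 1.95 CPM (SD, n = 3; log2 fold change 0.36 ± 0.05, SE; edgeR adjusted p = 1.12e-06). NPRL2 overlaps CYB561D2, of the opposite strand, over 2916 bases, and the reads of the pair cannot be told apart if the counting ignored strand, although CYB561D2 was listed at 15.3 CPM in the knockout and 18.0 CPM in wild type. DEPDC5, another subunit of GATOR1, did not pass the test (17.2 ± 0.59 and 18.8 ± 0.60 CPM, log2 fold change 0.13, 95% interval -0.05 to 0.30). DEPTOR, which binds mTOR directly and inhibits it, had 10 reads over the wild-type libraries and 3 over the knockout libraries, too few to be tested.

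The 4E-BP repressors moved in opposite directions. These small proteins bind the cap-binding factor eIF4E and keep it from starting translation until mTOR complex 1 phosphorylates them. EIF4EBP1 was at 55.6, 51.2 and 57.6 CPM in wild type and at 91.8, 85.4 and 83.4 CPM in the knockout, so all knockout libraries were higher (1.59-fold; log2 fold change 0.67 ± 0.06, SE; edgeR adjusted p = 1.13e-08). EIF4EBP2 was at 121.1, 124.2 and 130.3 CPM in wild type and at 60.8, 64.2 and 66.8 CPM in the knockout, so all knockout libraries were lower (1.96-fold; -0.97 ± 0.05; edgeR adjusted p = 1.21e-11). In wild type EIF4EBP2 therefore had more reads than EIF4EBP1, and in the knockout fewer. That order rests on reads not divided by gene length. Per kilobase EIF4EBP1 was the higher of the pair in both genotypes. It was at 67.9 against 52.7 CPM per kilobase in wild type and at 107.7 against 26.9 in the knockout.

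EIF4EBP2 lies on chromosome 28 (26606343 to 26631731), 1.69 megabases from DDIT4. Relative to the median of that chromosome its log2 fold change was -0.40, and the 18 other tested genes within 1 megabase had a median of -0.92, close to the gene's own value. For DDIT4 the 19 tested neighbours had a median of -0.69. The window was chosen after the data were seen, and the part of the regional shift in either gene's value was not tested.

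Among the effectors that carry the signal to translation, both S6 kinases fell. RPS6KB1 was at 41.0, 42.7 and 44.3 CPM in wild type and at 27.7, 30.6 and 25.5 CPM in the knockout (1.53-fold lower; log2 fold change -0.61 ± 0.08, SE; edgeR adjusted p = 7.86e-07). RPS6KB2 was at 59.2, 59.8 and 57.6 CPM in wild type and at 46.3, 43.2 and 41.8 CPM in the knockout (1.35-fold lower; -0.43 ± 0.06; edgeR adjusted p = 4.30e-06). Both kept their groups apart, and both were still called relative to their chromosomes, at -0.36 for RPS6KB1 and -0.16 for RPS6KB2. The tested genes within 1 megabase had medians near the kinases' own values, -0.52 for the 15 around RPS6KB1 and -0.47 for the 64 around RPS6KB2. EIF4E, the cap-binding factor itself, had a mean of 111.6 ± 4.70 CPM in wild type and 105.0 ± 1.61 CPM in the knockout and did not pass the test (-0.09, 95% interval -0.19 to 0.02; edgeR adjusted p = 0.113), though it did when wild-type replicate 3 was left out (-0.11, adjusted p = 0.0304) or libraries were scaled by total count (-0.14, adjusted p = 0.0157).

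**Figure D2:**
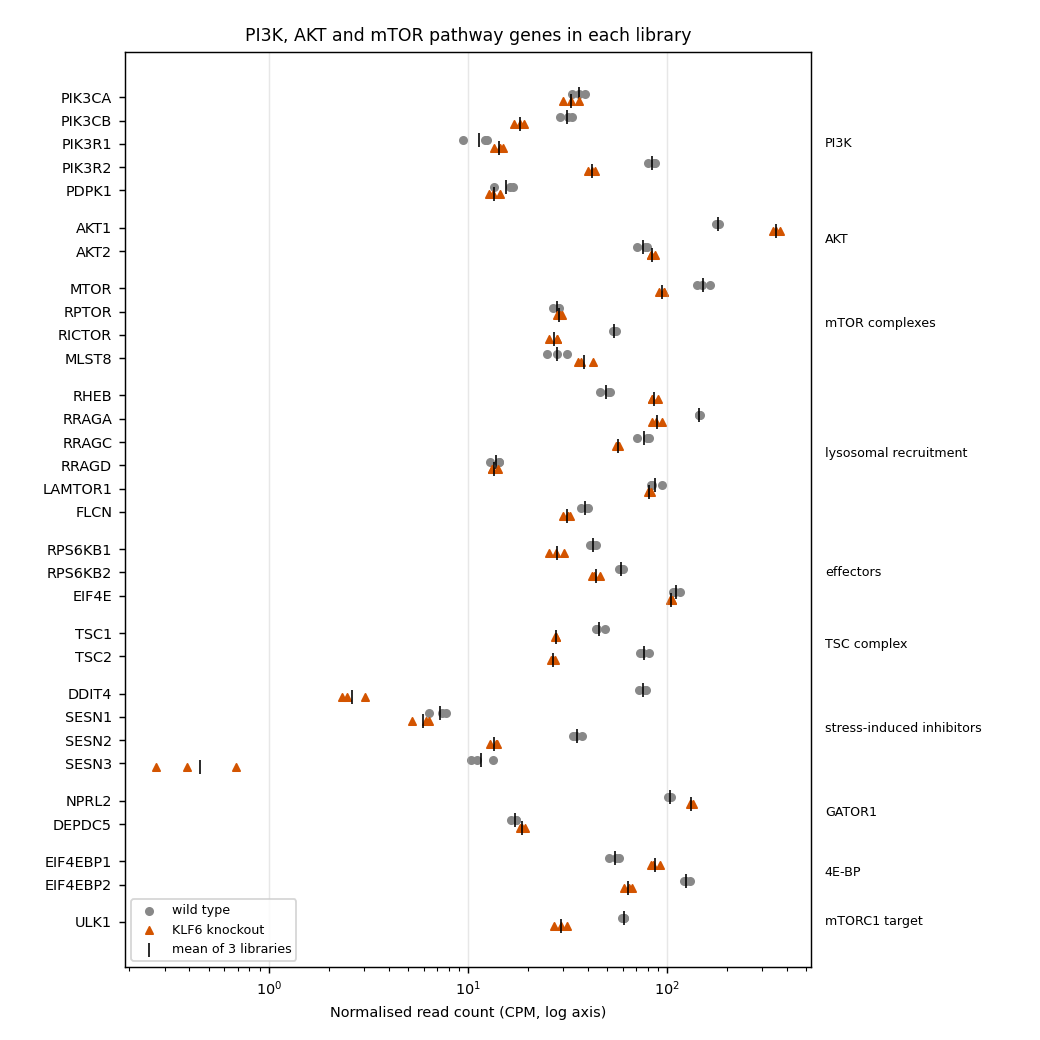
Normalised read count of 31 members in each of the 6 libraries (horizontal log axis, CPM); circles are wild-type and triangles knockout libraries, and bars are the means of 3. DEPTOR, with 0 reads in some libraries, is not drawn. The widest gaps between genotypes are those of DDIT4 (76.2 against 2.62 CPM) and SESN3 (11.6 against 0.45 CPM).

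At the top of the pathway, the PI3K subunits split by paralog. PIK3CA, the catalytic subunit that most growth factor receptors use, did not pass the test (36.1 ± 2.64 CPM in wild type, 33.1 ± 3.04 CPM in the knockout; log2 fold change -0.12, 95% interval -0.29 to 0.04). PIK3CB, the catalytic subunit that also responds to G protein-coupled receptors, fell 1.72-fold, from 33.2, 31.8 and 28.9 CPM to 19.2, 18.3 and 17.1 CPM (-0.78 ± 0.08, SE; edgeR adjusted p = 1.00e-07). The regulatory subunits stabilise the catalytic ones and keep them inactive until a receptor binds. PIK3R2 fell 2.02-fold, from 85.9, 80.5 and 87.4 CPM to 43.3, 40.0 and 42.2 CPM (-1.02 ± 0.06; edgeR adjusted p = 2.34e-11), without overlap. PIK3R1, at 9.48, 12.5 and 12.2 CPM in wild type and 14.6, 15.01 and 13.5 CPM in the knockout, rose by a log2 fold change of 0.33 ± 0.11 (edgeR adjusted p = 0.0129). Leaving out wild-type replicate 1 (0.22, adjusted p = 0.0757) or knockout replicate 2 (0.30, adjusted p = 0.0507) ended that call. Chromosome 20, where PIK3R1 lies, had a median of 0.48, and relative to it the gene was at -0.14 (adjusted p = 0.261). PDPK1, the kinase that activates AKT, did not pass the test (-0.20, 95% interval -0.41 to 0.02; edgeR adjusted p = 0.0960), but did when wild-type replicate 2 was left out (-0.28, adjusted p = 0.0236), with libraries scaled by total count (-0.25, adjusted p = 0.0405) and relative to its chromosome (-0.27, adjusted p = 0.0246).

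AKT1 showed the largest rise of the members. This kinase promotes growth and survival. It was at 177, 181 and 182 CPM in wild type and at 369, 341 and 354 CPM in the knockout, a 1.97-fold rise (log2 fold change 0.98 ± 0.05, SE; edgeR adjusted p = 9.80e-13). The groups were far apart, and the gene's chromosome, 21, had a median of 0.08 (AKT1 lies at 69230378 to 69247284). AKT2, the paralog best known for insulin-driven glucose uptake, differed by little, with 77.8, 71.1 and 79.5 CPM in wild type and 87.2, 83.0 and 83.4 CPM in the knockout. Its log2 fold change of 0.15 ± 0.06 passed the test (edgeR adjusted p = 0.0203), but the call ended when knockout replicate 1 (0.13, adjusted p = 0.0834) or wild-type replicate 2 (0.10, adjusted p = 0.115) was left out, and when libraries were scaled by total count (0.10, adjusted p = 0.107). Chromosome 18, which holds AKT2, had a median of 0.32, and relative to it the gene was lower (-0.17, adjusted p = 0.0110).

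The subunits of the mTOR complexes did not move together. MTOR, the kinase shared by both complexes, was at 142, 150.4 and 163.5 CPM in wild type and at 96.8, 91.2 and 96.4 CPM in the knockout, a 1.603-fold fall (log2 fold change -0.68 ± 0.06, SE; edgeR adjusted p = 2.77e-09). RICTOR, the scaffold of mTOR complex 2, fell 2.00-fold, from 53.5, 54.3 and 55.5 CPM to 25.5, 28.1 and 28.0 CPM (-1.0002 ± 0.066; edgeR adjusted p = 1.66e-10). RICTOR lies on chromosome 20 with PIK3R1, where the median was 0.48, and its log2 fold change relative to that was -1.48. Neither gene had overlapping groups.

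RPTOR, the scaffold of mTOR complex 1 that picks its substrates, did not pass the test, at 28.0 ± 1.006 CPM in wild type and 28.8 ± 0.82 CPM in the knockout (log2 fold change 0.04, 95% interval -0.11 to 0.19; edgeR adjusted p = 0.622). Its chromosome, 19, had a median of -0.25, and relative to it RPTOR was higher (0.29, adjusted p = 0.00129). With libraries scaled by total count its log2 fold change was -0.0093. MLST8, a small subunit of both complexes, was at 31.6, 28.0 and 24.9 CPM in wild type and at 35.9, 36.8 and 42.6 CPM in the knockout, a 1.37-fold rise (0.45 ± 0.09, SE; edgeR adjusted p = 2.09e-04). MLST8 and TSC2 lie 110.3 kilobases apart on chromosome 25, so that neighbours on 1 chromosome moved in opposite directions.

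The GTPases that switch mTOR complex 1 on at the lysosome went in different directions. RHEB, the direct activator, was at 50.5, 51.6 and 46.1 CPM in wild type and at 84.5, 83.8 and 89.9 CPM in the knockout, a 1.74-fold rise (log2 fold change 0.80 ± 0.06, SE; edgeR adjusted p = 7.50e-10). RRAGA, a Rag GTPase that binds the complex when amino acids are present, was at 145.0, 146.8 and 144.4 CPM in wild type and at 84.5, 88.4 and 94.2 CPM in the knockout, a 1.63-fold fall (-0.71 ± 0.05; edgeR adjusted p = 4.52e-10). In both cases all knockout libraries lay on 1 side of all wild-type libraries.

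The partners of RRAGA changed less. RRAGC fell from 77.1 ± 5.46 to 56.7 ± 0.996 CPM (SD, n = 3; log2 fold change -0.44 ± 0.06, SE; edgeR adjusted p = 2.37e-06), and FLCN, the GTPase activator that acts on RRAGC and RRAGD, fell from 38.9 ± 1.56 to 31.4 ± 1.13 CPM (-0.31 ± 0.07; edgeR adjusted p = 5.21e-04). Neither stood apart from its chromosome, with -0.05 for RRAGC (adjusted p = 0.467) on chromosome 3, whose median was -0.39, and -0.05 for FLCN (adjusted p = 0.486) on chromosome 19. Their nearer surroundings gave another picture, since the 21 tested genes within 1 megabase of RRAGC had a median of -0.11 and the 39 around FLCN one of 0.08. RRAGD did not pass the test (13.9 ± 0.86 and 13.5 ± 0.57 CPM; -0.04, 95% interval -0.24 to 0.17). LAMTOR1, which anchors the Rag GTPases to the lysosome, did not pass it either (-0.09, 95% interval -0.21 to 0.03; edgeR adjusted p = 0.151), though it did when wild-type replicate 3 was left out (-0.12, adjusted p = 0.0451) or libraries were scaled by total count (-0.14, adjusted p = 0.0296).

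ULK1, the kinase that starts autophagy and that mTOR complex 1 inhibits, was at 59.4, 61.0 and 61.1 CPM in wild type and at 31.5, 29.4 and 27.0 CPM in the knockout. The groups were well apart, and the fall was 2.07-fold (log2 fold change -1.05 ± 0.07, SE; edgeR adjusted p = 1.11e-10).

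Ratios between members within a library do not depend on scaling. Each level was first divided by the gene length in the count table, and 5 ratios were compared by an exact 2-sided permutation test, for which 3 libraries against 3 cannot give less than p = 0.10. RICTOR stood at 1.04, 0.99 and 1.02 times RPTOR in wild type and at 0.45, 0.51 and 0.52 times RPTOR in the knockout (exact permutation p = 0.10, 0.125 adjusted over the 5 ratios). AKT2 stood at 0.31, 0.28 and 0.31 times AKT1 in wild type and at 0.17 times AKT1 in each knockout library (exact permutation p = 0.10, adjusted 0.125). The PI3K catalytic subunits PIK3CA and PIK3CB together were at 0.68, 0.71 and 0.66 times the regulatory PIK3R1 and PIK3R2 in wild type and at 0.86, 1.001 and 0.90 times in the knockout (exact permutation p = 0.10, adjusted 0.125). In these 3 ratios the genotypes did not overlap, and the p-values are the smallest the design can give.

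The balance of the 4E-BP repressors to EIF4E shifted less. EIF4EBP1 and EIF4EBP2 together were at 1.73, 1.77 and 1.98 times EIF4E in wild type and at 2.22, 2.12 and 2.15 times in the knockout (log2 difference 0.25, exact permutation p = 0.10, adjusted 0.125). Without dividing by length the log2 difference was -0.17, so the direction rests on the listed lengths, 2375 bases for EIF4EBP2, which fell, and 807 bases for EIF4EBP1, which rose. The ratio of RPS6KB2 to RPS6KB1 overlapped between genotypes (1.27, 1.23 and 1.14 in wild type, 1.47, 1.24 and 1.44 in the knockout; exact permutation p = 0.20, adjusted 0.20).

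**Figure D3:**
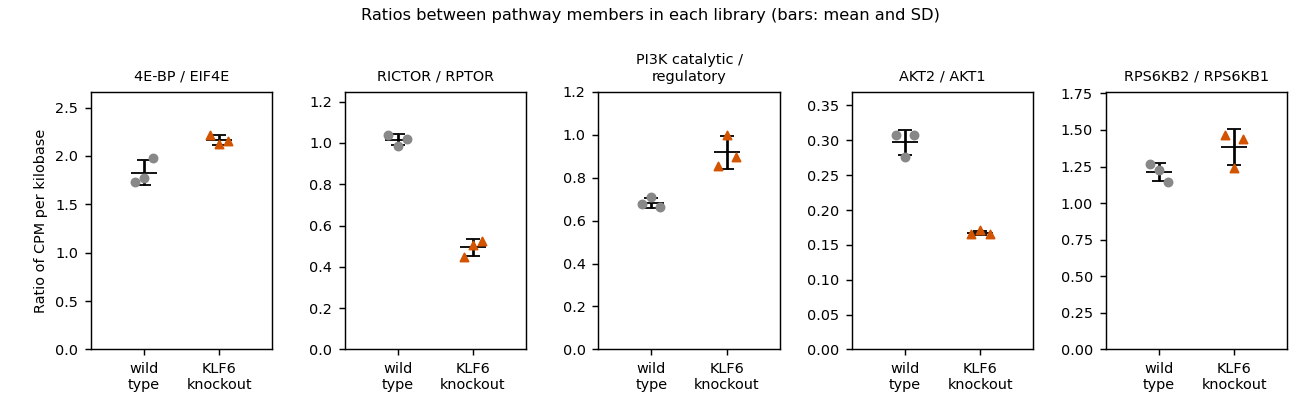
Ratio of CPM per kilobase between members in each library (vertical axes start at 0), with the mean and SD of 3 libraries per genotype. The ratio of RICTOR to RPTOR goes from 1.02 ± 0.03 in wild type to 0.49 ± 0.04 in the knockout, and that of AKT2 to AKT1 from 0.30 ± 0.02 to 0.17 ± 0.0031.

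Per length, AKT1 was the most abundant member in both genotypes, at 104.3 ± 1.45 CPM per kilobase in wild type and 205.6 ± 8.35 in the knockout (SD, n = 3). In wild type RRAGA followed at 91.9 ± 0.79 CPM per kilobase, and then EIF4EBP1 (67.9 ± 4.07), EIF4E (66.0 ± 2.78) and LAMTOR1 (60.2 ± 4.51), of which neighbours did not differ beyond their spread. In the knockout the order after AKT1 was EIF4EBP1 (107.7 ± 5.43 CPM per kilobase), RHEB (72.4 ± 2.80), EIF4E (62.1 ± 0.95), LAMTOR1 (56.4 ± 0.96) and RRAGA (56.2 ± 3.09), of which the last pair did not differ beyond its spread. DDIT4 went from the 7th place among the 32 members (47.2 ± 2.08 CPM per kilobase) to the 30th (1.62 ± 0.23). At the low end of the wild-type order stood PIK3R1, SESN1 and DEPTOR, at 2.46 ± 0.36, 2.24 ± 0.23 and 0.07 ± 0.09 CPM per kilobase.

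The other genes of the pathway went both ways. Of 72 listed, 71 had a row and 67 were tested, of which 17 rose and 28 fell, with a median log2 fold change of -0.09. The share called was 67.2%, against 74.6% of all tested genes. The counts by role below are to be read against the same 37.1% of all genes that rose and 37.6% that fell, and none was tested against them. Among PI3K isoforms and lipid phosphatases 2 rose and 6 fell of 12. PIK3R3, another regulatory subunit, fell from 11.4 ± 0.95 to 1.62 ± 0.13 CPM (-2.81 ± 0.16, SE; edgeR adjusted p = 1.66e-11), PIK3C2B, a class II enzyme, fell too (-0.81), and PIK3CD, a catalytic subunit best known from leukocytes, rose (0.87). Of 8 further subunits and assembly factors of the mTOR and TSC complexes, 2 rose and 1 fell. AKT1S1, also called PRAS40, an inhibitory subunit of mTOR complex 1, rose (0.28), although relative to chromosome 18 it was at -0.03. The chaperone subunit TTI2 also rose (0.43, and 0.25 relative to its chromosome). It overlaps MAK16, of the opposite strand, over 2711 bases, and MAK16 went from 17.4 to 28.8 CPM, so that without strand the reads of the pair cannot be told apart. PRR5, of complex 2, fell (-0.37).

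In the amino acid branch 7 rose and 8 fell of 19. The GATOR2 subunit SEH1L, which also belongs to the nuclear pore, rose from 52.4 ± 2.98 to 106.3 ± 6.40 CPM (1.02 ± 0.06, SE; edgeR adjusted p = 3.12e-11), and was at 0.65 relative to its chromosome. The folliculin partner FNIP2 rose too (0.79). LAMTOR2, of the Ragulator complex that anchors the Rag GTPases, fell (-0.81, and -0.42 relative to chromosome 3). Of 6 tested genes of the energy-sensing kinase AMPK and its activator, 3 rose and 0 fell, so that 50% were called. The AMPK subunit genes PRKAG2 (0.58) and PRKAB1 (0.44) were those with the largest rises.

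Downstream, 0 of 8 translation genes rose and 5 fell, so that 62.5% were called. EIF4B, a helicase cofactor that S6 kinase phosphorylates, fell from 696.0 ± 23.9 to 373.7 ± 4.40 CPM (-0.90 ± 0.04, SE; edgeR adjusted p = 1.6e-12), and EIF4EBP3, another 4E-BP at a low level, fell (-0.65). Among 7 tested substrates of AKT or of an mTOR complex, 2 rose and 5 fell. The transcription factor gene FOXO4 fell from 15.8 ± 1.15 to 3.43 ± 0.24 CPM (-2.21 ± 0.13; edgeR adjusted p = 2.15e-11) and the kinase gene SGK3 fell (-0.94). SGK3 lies on chromosome 14, whose median was -0.82, and relative to it the gene was at -0.12. GRB10, an adaptor that dampens insulin signalling, and GSK3A, a kinase that AKT inhibits, rose (0.71 and 0.57), with 0.25 for GSK3A relative to its chromosome.

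Among 7 autophagy and lysosome genes under mTOR control 1 rose and 3 fell. RB1CC1, a partner of ULK1, fell from 105.5 ± 4.88 to 39.0 ± 1.89 CPM (-1.43 ± 0.06, SE; edgeR adjusted p = 1.69e-13). It too lies on chromosome 14, and relative to that median it was at -0.61. TFEB, a transcription factor of lysosomal genes, fell (-1.06). ULK2, the paralog of ULK1, rose from 7.71 ± 1.86 to 14.9 ± 0.61 CPM (0.95 ± 0.14; edgeR adjusted p = 6.11e-06). The paralogs ULK1 and ULK2 thus moved in opposite directions.

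**Figure D4:**
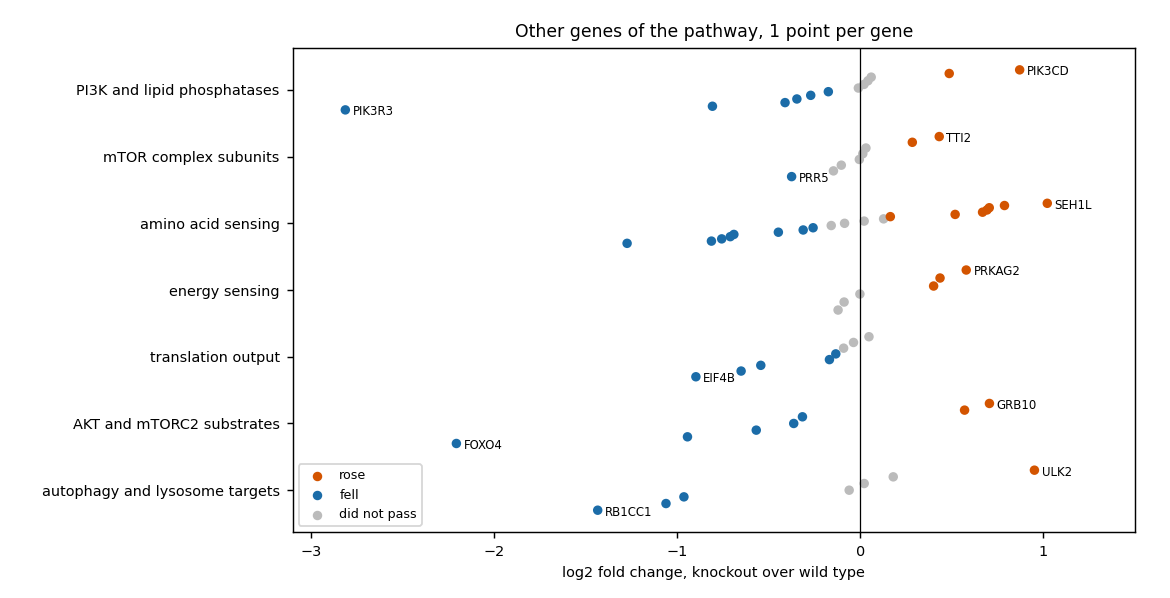
Log2 fold change, knockout relative to wild type, for 67 tested pathway genes that are not among the 32 members, 1 point per gene, by role. Orange points rose, blue points fell and grey points did not pass the test; the named genes are ends of a row that passed the test (only the upper end for amino acid sensing), such as PIK3R3 at -2.81 and SEH1L at 1.02.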

How the data were processed

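Total RNA of 3 knockout and 3 wild-type libraries was sequenced (Ion Total RNA-Seq Kit v2, per the labels). The authors deposited whole-number counts per gene. HISAT2 2.0.5 and featureCounts 1.5.0-p3 are named in the submitters' processing notes, and no source used here names the genome build, annotation or strand setting. The authors' deposited table lists 9532 genes with a log2 fold change, a p-value and a normalized signal (counts over 1 factor per library, largest relative deviation 5e-15). It holds the same 23 members that were called here, all with the same sign and with log2 fold changes within 0.0146.

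Counts were fitted in edgeR 4.0.16 (under R 4.3.3), with TMM scaling, filterByExpr (minimum count 10, minimum total 15), a robust quasi-likelihood fit over 13390 genes and Benjamini-Hochberg adjustment over all of them. The script was tested on simulated data. CPM use the TMM-scaled library. The SE comes from the log2 fold change and the test's F, and errors after levels are SD over 3 libraries. Total counts of 17512892 to 18724879 set the counting precision, and no molecular identifiers are mentioned.

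Members and lists were chosen with earlier results of these data known. All members are named, and for each role of the other pathway genes up to 2 per direction, those with the largest change among called genes whose groups did not overlap. DEPTOR was left untested by the filter. Alternatives were other scalings and filters, DESeq2 1.42.0, limma-voom (limma 3.58.1), a replicate block, each library left out, chromosome medians taken out (chromosomes with at least 20 tested genes) and ratios without lengths. Each symbol had 1 row, so summing rows changed nothing. A planned search of promoter motifs was not run, and some genes that the lists or the naming rule hold are not reported here.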

Additional observations from a re-analysis of the deposited data

How the results depend on the processing

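The counts of members, activators, inhibitors and other pathway genes that rose or fell stayed within 1.5 times their values under all 15 alternative fits. Members that rose numbered 6 to 7 and those that fell 16 to 20. The inhibitor median moved to -0.97 with no filter on low counts, which adds DEPTOR, and to -0.57 with chromosome medians taken out. The 4E-BP ratio turned to -0.17 without lengths. The log2 fold change changed sign for RPTOR with scaling by library size only (-0.0093) and, relative to the chromosome median, for AKT2 (-0.17), PIK3R1 (-0.14), EIF4E (0.096) and LAMTOR1 (0.096), by construction of that setting. Replicate numbers were shared by the genotypes, but same-numbered libraries did not deviate together (correlations -0.04, 0.07 and -0.02, and knockout replicate 1 correlated best with wild-type replicate 3, at 0.12). With the replicate block 7 members rose and 16 fell, and no member's call changed. SESN3, with 5 to 12 reads per knockout library, ranged from -5.10 to -4.41 with a library left out.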

Other observations

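DDIT4 and the sestrin genes are known targets of stress-responsive transcription factors, and of 7 such factors listed, 6 fell and 0 rose, where 37.6% of all tested genes fell. CEBPB fell by 0.96 on the log2 scale, FOXO1 by 0.57, ATF4 by 0.54, NFE2L2 by 0.52, HIF1A by 0.35 and FOXO3 by 0.32. Relative to their chromosomes HIF1A was at -0.06 and FOXO1 at -0.14, and the groups overlapped for FOXO3. NR3C1, the glucocorticoid receptor gene, did not pass the test (44.0 ± 1.40 CPM in wild type, 45.6 ± 0.80 CPM in the knockout; edgeR adjusted p = 0.446). RNA levels do not give the activity of these factors. Any link between their levels and those of DDIT4 or the sestrins was not tested.

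Genes known to rise with glucocorticoids, as DDIT4 does, went both ways. FKBP5 rose from 49.8 ± 2.70 to 80.5 ± 3.03 CPM (log2 fold change 0.69 ± 0.06, SE; edgeR adjusted p = 4.88e-09). PER1 fell by 1.16 on the log2 scale, KLF9, at 5.32 ± 1.16 CPM in wild type, by 2.51, and SGK1 by 0.36, while TSC22D3 and ZBTB16 had too few reads to be tested.

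Members differed in how near they lay to their surroundings on the chromosome. Only some are given here, in a window chosen after the data were seen, and the part of the surroundings was not tested. The 7 tested genes within 1 megabase of PIK3R1 (0.33) had a median log2 fold change of 0.63, and 6 of them rose. The 52 around AKT2 (0.15) had a median of 0.35. The 19 around RHEB had a median of 0.25 (11 rose and 1 fell), against 0.80 for RHEB itself. The 30 around AKT1 had a median of 0.11, against 0.98 for AKT1 itself. The 78 around TSC2 had a median of -0.08, against -1.52 for TSC2.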
